A study of Mus musculus with 32 samples.

Results

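Glutathione S-transferases join glutathione, the small thiol that buffers oxidants in cells, to electrophilic products of oxidation and to foreign chemicals. The gene set described here holds 10 transferase genes of 41388 genes counted, chosen by name: the cytosolic Gsta4 (alpha class), Gstm1 and Gstm2 (mu), Gstp1 (pi), Gstt1 (theta) and Gsto1 (omega), Gstk1 of the kappa class, and the membrane-bound Mgst1, Mgst2 and Mgst3. All 10 passed the expression filter in every comparison, but Gsta4 did so in Nfkbiz f/f through 1 library, the first GFP library with IL-1β. Their RNA was counted by sequencing in primary chondrocytes from the sternum and ribs of newborn C57BL/6 mice, which were not passaged.

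The series had 32 libraries in 16 conditions with 2 libraries each. Wild-type cells were left untreated or were given FX11 at 40 µM, interleukin-1β (IL-1β) at 10 ng/mL, or both, for 24 h. FX11 is a small-molecule inhibitor of lactate dehydrogenase A, and IL-1β is an inflammatory cytokine that drives cartilage cells toward matrix breakdown. Chondrocytes of 3 lines, Ldha f/f, Nfkbiz f/f and Nampt f/f, in which the named gene is flanked by loxP sites, were infected in culture for 24 h with adenovirus carrying GFP or Cre and then kept without or with IL-1β for another 24 h. Both arms of a floxed line thus carried the floxed alleles and a virus, the wild-type cells had no virus, and Cre was delivered to whatever cells the virus entered rather than to a chosen cell type. Ldha encodes the subunit that makes lactate from pyruvate, Nampt the rate-limiting enzyme of NAD salvage, and Nfkbiz the nuclear inhibitor-of-κB protein IκBζ, which works with NF-κB at a subset of its target genes.

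The libraries held 15830658 to 39959888 counted reads. They came in a set of 12 and a set of 20. Outside the Nfkbiz f/f line, replicate 1 of each condition was in the first set and replicate 2 in the second, while all Nfkbiz f/f libraries were in the second set. Separate animals or cultures behind the 2 replicates were not stated, so p-values measure only the spread between these libraries. After Cre, the RNA of the targeted gene was at 12.8% of GFP for Ldha, 11.9% for Nampt and 54.2% for Nfkbiz without IL-1β, and at 4.97%, 7.61% and 13.3% with IL-1β. All 12 chondrocyte markers, among them Col2a1 and Acan, were found in each line. Their summed level in the floxed libraries was 14212 to 94783 CPM (reads per 1000000 counted, with library sizes scaled by trimmed mean of M-values, TMM). That sum was lower with IL-1β in each line. Summed macrophage markers were 14.7 to 58.7 CPM in the floxed libraries and 106 to 331 CPM in wild type. Because these are bulk RNA samples, fewer cells of a type and less RNA per cell cannot be told apart.

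Conjugation by these enzymes is one of several uses of glutathione. Cystine taken up by the Slc7a11 transporter supplies its cysteine, glutamate-cysteine ligase makes it, glutathione reductase recycles it, and multidrug-resistance transporters such as Abcc1 carry the conjugates out of the cell. Many of the genes are known targets of NRF2, a transcription factor activated by electrophiles. Among the members, Gstp1 is the abundant cytosolic form of many tissues, Gsta4 acts on aldehydes formed when lipids are oxidized, Gsto1 removes glutathione from protein thiols and reduces dehydroascorbate, and Mgst1 works on hydrophobic substrates in membranes.

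Stretches before the RefSeq start sites of Gstp1 and Mgst2 are shown because these 2 members were the ones that held the palindrome TGANTCA, the core motif of AP-1 factors. The windows searched were RefSeq promoters (GRCm38.p6, 250 bases before to 50 after the start site). Both members rose with IL-1β, but so did Gstm1, Gstt1 and Mgst1, whose windows lacked this motif. Gsta4, which rose too, had no promoter entry. Bases 250 to 11 before the start are printed 5′ to 3′ on the gene's strand, with the motif in capitals. The Gstp1 stretch lies at chr19:4037923-4038162 on the minus strand, and the Mgst2 stretch at chr3:51660929-51661168 on the plus strand. The Mgst2 stretch lies inside the Ensembl gene, in an intron of a transcript that starts further upstream, and before the first exon of the gene's other transcripts.
Gstp1: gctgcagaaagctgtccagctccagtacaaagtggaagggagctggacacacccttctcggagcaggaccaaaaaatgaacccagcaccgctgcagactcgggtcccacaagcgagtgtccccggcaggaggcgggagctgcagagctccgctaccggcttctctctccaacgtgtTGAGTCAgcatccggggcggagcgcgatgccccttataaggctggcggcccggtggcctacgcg
Mgst2: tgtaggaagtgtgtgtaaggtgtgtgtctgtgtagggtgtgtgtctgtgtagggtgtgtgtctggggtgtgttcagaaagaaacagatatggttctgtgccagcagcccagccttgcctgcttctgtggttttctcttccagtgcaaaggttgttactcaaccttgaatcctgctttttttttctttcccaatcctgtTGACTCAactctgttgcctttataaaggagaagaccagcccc

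The motif stood 74 to 68 bases before the Gstp1 start and 52 to 46 bases before the Mgst2 start, and 7.93% of the 27025 promoters in the RefSeq table held it on either strand. The antioxidant-response core TGACNNNGC, to which NRF2 binds, was found in 1 of the 9 members with a promoter entry, Mgst1, on the minus strand 56 to 48 bases before the start (GCACGGTCA read on the plus strand), and in 12.5% of all promoters. TGANTCA and TGACNNNGC share their first letters, but matches to them did not overlap in any member's window. The Gstp1 match continues as TGAGTCAGC, which holds G where TGACNNNGC holds C. It was therefore not counted as an antioxidant-response core, and the search does not cover such variants. An NF-κB core motif, also searched on both strands, was found in 0 of the 9 members and in 4.71% of all promoters. These matches describe letters in a window and no binding was measured.

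The members lie on 6 chromosomes (GRCm38, Ensembl release 76). Gstp1 is at chr19:4035407-4037921 on the minus strand, close to its paralogs Gstp2 and Gstp3. Gsto1 is at chr19:47854970-47864790, Mgst1 at chr6:138140316-138156755, Gsta4 at chr9:78191966-78209348 and Mgst2 at chr3:51660360-51682675, all on the plus strand. The coding sequences of Gstp1 and Gstp2 were identical at 618 of 630 bases, or 98.1%. Those of Gstm1 and Gstm2 shared 85.9% of aligned bases, those of Gsta1 and Gsta4 67.3%, and those of Gstt1 and Gstt3 76.2%. Since reads were counted where they aligned uniquely, the split between Gstp1 and Gstp2 is uncertain. Gsto1 overlaps Cfap43 on the opposite strand and Mgst2 overlaps Gm37261 on its own strand.

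Gstp1 was the most abundant of the 10. In the 6 GFP libraries without IL-1β, its length-scaled level (RPKM, CPM per kilobase of transcript) was 94.1 at the lowest, 102 at the median and 114 at the highest. Gsto1 followed with 46.1, 52.4 and 61.7 RPKM, and Gstm1 with 18.2, 20.3 and 24.5 RPKM. These 3 genes did not overlap each other or the rest. The median of the other 7 lay between 0.65 RPKM for Gstt1 and 3.14 RPKM for Gstm2, and neighbours in that order overlapped. Gstp1 alone made up 50.3% to 58.0% of the summed RPKM of the 10 genes without IL-1β and 63.2% to 71.4% with it. Gsta4 was the member whose level differed most between the lines. It ran from 0.28 RPKM in an Nfkbiz f/f library, where it rested on 6 reads, to 3.19 RPKM in an Nampt f/f library. Summed fibroblast markers in these GFP libraries also differed, at 1247 to 1432 CPM in Nfkbiz f/f. They were at 6051 to 6217 CPM in Ldha f/f and at 5213 to 5387 CPM in Nampt f/f. Their part in the differences between lines was not tested.

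**Figure D1:**
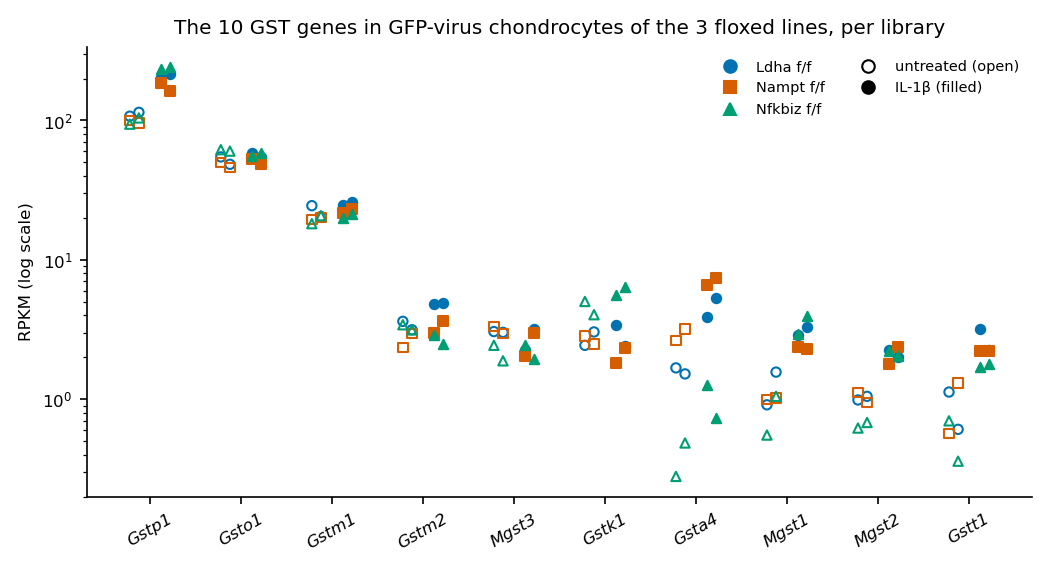
Levels of the 10 glutathione S-transferase genes in the 12 GFP-virus libraries of the 3 floxed lines, as RPKM on a log axis, with open symbols for untreated and filled symbols for IL-1β libraries. Gstp1, Gsto1 and Gstm1 stand above the other 7 genes, and the filled Gstp1 symbols (163 to 240 RPKM) lie above its open ones (94.1 to 114 RPKM).

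The first comparison asked what IL-1β did to the transferases while the floxed genes were intact, in the 12 GFP libraries of the 3 lines. 6 of the 10 members rose and none fell: Gstp1, Gsta4, Gstt1, Mgst1 and Mgst2 by 2.02- to 2.96-fold, and Gstm1 slightly. Over all 14283 genes tested, 56.2% were called at an adjusted p of 0.05 or less and 28.0% were called higher. The members' median log2 change was 0.62, against -0.01 over all genes. Gsto1, Gstm2, Gstk1 and Mgst3 did not pass, with log2 changes of 0.05, 0.21, 0.09 and -0.17.

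Gstp1 was at 81.2 and 86.6 CPM in the 2 Ldha f/f GFP libraries against 156 and 163 CPM once IL-1β was given. In Nampt f/f it went from 76.04 and 72.48 CPM to 140.3 and 123 CPM, and in Nfkbiz f/f from 71.2 and 78.9 CPM to 178 and 182 CPM. Every IL-1β library was thus above every untreated one. The share of all genes separated in this way was not counted, here or for the members below. The log2 change was 1.02 ± 0.06 (SE, 6 against 6 libraries), with an adjusted p of 7.62e-10 by the quasi-likelihood test of edgeR with Benjamini-Hochberg adjustment.

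The membrane enzyme Mgst1 was lower in level but moved further. It was at 1.83 and 3.15 CPM in Ldha f/f without IL-1β and reached 5.78 and 6.59 CPM with it. In Nampt f/f the values were 2.00 and 2.05 CPM against 4.77 and 4.63 CPM, and in Nfkbiz f/f 1.11 and 2.11 CPM against 5.86 and 8.00 CPM. The groups did not overlap, and the log2 change was 1.54 ± 0.19 (edgeR, adjusted p = 2.31e-06).

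Mgst2, which can also make a leukotriene from glutathione, was at 2.27 to 4.08 CPM in the 6 untreated and at 6.49 to 8.71 CPM in the 6 IL-1β libraries. Its log2 change was 1.24 ± 0.14 (edgeR, adjusted p = 7.6e-07). Gstt1, which acts on small halogenated compounds, was at 0.55 to 2.00 CPM untreated but 2.61 to 4.84 CPM after IL-1β, again without overlap, and changed by 1.56 ± 0.23 (adjusted p = 2.21e-05). Gsta4 rose within each line, from 1.61 and 1.45 CPM to 3.75 and 5.08 CPM in Ldha f/f, from 2.54 and 3.05 CPM to 6.33 and 7.10 CPM in Nampt f/f, and from 0.27 and 0.46 CPM to 1.20 and 0.70 CPM in Nfkbiz f/f. Its lines differed in level, so that the pooled groups overlapped, and its log2 change with line as a covariate was 1.38 ± 0.17 (adjusted p = 3.12e-06). The call for Gstm1, at 0.16 ± 0.06 (adjusted p = 0.0297), was lost in 5 of 11 alternatives, while those for the other 5 genes held in all 11. Summed macrophage markers were also higher with IL-1β in each line, at 28.6 to 54.9 CPM against 14.7 to 26.1 CPM. Summed adipocyte markers were higher with IL-1β in each line too, at 16.5 to 66.0 CPM against 10.8 to 16.1 CPM, with the highest values in Nfkbiz f/f. In these groups 1 to 3 of the 6 adipocyte markers were over 1 CPM in any library. In Nfkbiz f/f with IL-1β it was 1, so that sum is mainly the level of 1 gene. Summed skeletal muscle markers were lower, at 11.7 to 50.1 CPM against 76.1 to 109 CPM, though in Nfkbiz f/f only 2 of these 6 markers were over 1 CPM. Summed fibroblast markers were lower within each line. The part of these marker changes in the members' values was not tested.

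Fitted line by line, 6 members were called with IL-1β in Ldha f/f (27.9% of all genes called, 14.5% higher), 5 in Nampt f/f (35.0%, 17.7% higher) and 4 in Nfkbiz f/f (26.8%, 15.2% higher), each of them higher. Gstp1, Gstt1, Mgst1 and Mgst2 were in all 3 lists. Gsta4 passed in Ldha f/f and Nampt f/f with log2 changes of 1.51 and 1.30 but missed in Nfkbiz f/f, where the estimate was 1.36 (edgeR, adjusted p = 0.107) on 6 to 24 reads a library. Gstm2 passed in Ldha f/f alone, at 0.51 (adjusted p = 0.0461), and lost the call when any 1 of the 4 GFP libraries or of the 2 Cre libraries with IL-1β was left out, at 0.42 to 0.62. Gstt1 lost its call in Nampt f/f without the first untreated GFP library or either GFP library with IL-1β (0.78 to 2.00 over all libraries left out), and in Nfkbiz f/f without the second untreated GFP library (1.33 to 2.28). No member's IL-1β response differed between lines when the difference itself was tested, in comparisons that called 0.00598% of genes for Ldha f/f against Nampt f/f, 1.48% for Ldha f/f against Nfkbiz f/f and 2.65% for Nampt f/f against Nfkbiz f/f. Gstp1 came nearest, with a response lower by 0.42 log2 units in Nampt f/f than in Nfkbiz f/f (edgeR, adjusted p = 0.0538), and passed in 5 of 7 alternatives, the fit with library set as a block among them.

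**Figure D2:**
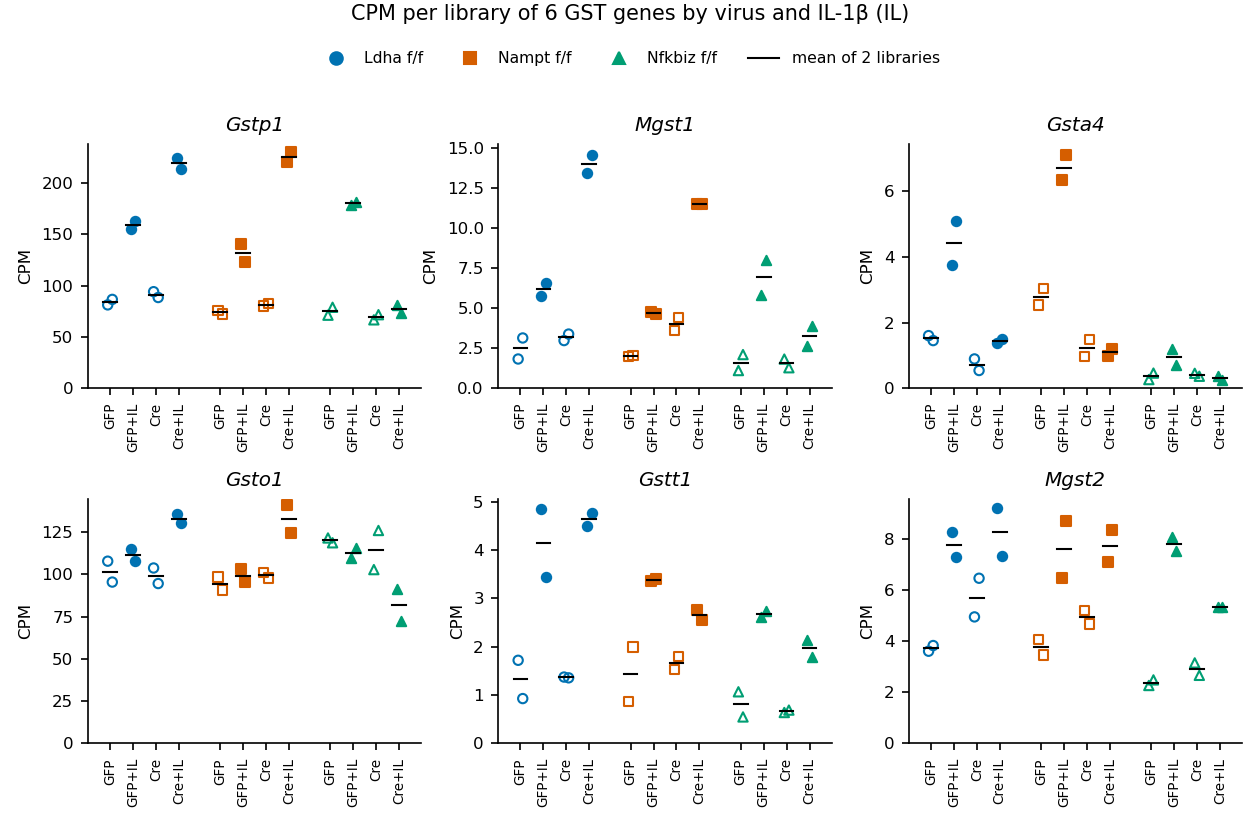
Levels in CPM of Gstp1, Mgst1, Gsta4, Gsto1, Gstt1 and Mgst2 in every library of the 3 floxed lines, by virus and IL-1β, with bars at the mean of 2 libraries. In Ldha f/f and Nampt f/f the Gstp1 points are highest with Cre and IL-1β together, and in Nfkbiz f/f the Cre libraries with IL-1β (81.2 and 73.5 CPM) sit near the untreated ones.

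The second comparison set Cre against GFP under IL-1β in each floxed line. No cells without floxed alleles were given Cre virus. Within a line, loss of the floxed gene and an effect of Cre itself thus cannot be told apart. After Cre in Ldha f/f and Nampt f/f, Gstp1 and Mgst1 rose above their IL-1β level in the GFP cells, and Gsta4 fell. After Cre in Nfkbiz f/f, Gstp1 and Mgst1 fell instead, together with Gsto1 and Gstm1. Of the 10 members, 5 were called in Ldha f/f (4 higher and 1 lower, 34.0% of all genes called), 6 in Nampt f/f (5 higher and 1 lower, 48.4%) and 4 in Nfkbiz f/f (all lower, with 17.4% of all genes called and 9.2% lower). The members' median log2 change was 0.19 in Ldha f/f, 0.19 in Nampt f/f and -0.47 in Nfkbiz f/f, against -0.02, -0.03 and -0.01 over all genes.

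In Ldha f/f with IL-1β, Gstp1 was at 156 and 163 CPM with GFP and at 224 and 214 CPM with Cre. The log2 change was 0.48 ± 0.07 (edgeR, adjusted p = 0.000692), a 1.4-fold higher level. Mgst1 was at 5.78 and 6.59 CPM with GFP and at 13.4 and 14.6 CPM with Cre, a log2 change of 1.21 ± 0.22 (adjusted p = 0.00235). In both genes each Cre library was above each GFP library. With 2 libraries in each group, such separation can arise by chance, here and below. Its share over all genes was not counted.

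Gsta4, the aldehyde-conjugating form, went the other way in Ldha f/f, from 3.75 and 5.08 CPM to 1.39 and 1.51 CPM, a log2 change of -1.58 ± 0.32 (edgeR, adjusted p = 0.00371). These 3 calls held whichever library was left out. Gsto1 (115 and 108 CPM against 135 and 130.1 CPM) and Gstm2 (8.05 and 8.28 CPM against 10.7 and 11.9 CPM) also passed, at 0.28 ± 0.08 and 0.49 ± 0.16 (adjusted p = 0.0259 and 0.044), but each lost its call without any 1 of the 4 libraries compared, at 0.23 to 0.29 and 0.40 to 0.55. Gstm1, Gstk1, Gstt1, Mgst2 and Mgst3 did not pass, and their 95% intervals all included 0, the widest being -0.75 to 0.65 for Mgst3.

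The same members were called in Nampt f/f, with Gstm1 in addition. Gstp1 was at 140.3 and 123 CPM with GFP and IL-1β and at 221 and 230.0 CPM with Cre and IL-1β, a log2 change of 0.79 ± 0.07 (edgeR, adjusted p = 4.75e-06). Mgst1 went from 4.77 and 4.63 CPM to 11.5 and 11.5 CPM, a change of 1.31 ± 0.17 (adjusted p = 9.34e-05). Gsta4 fell from 6.33 and 7.10 CPM to 0.99 and 1.21 CPM, or to 0.165 of its GFP level, a change of -2.60 ± 0.29 (adjusted p = 2.93e-05). None of these 3 groups of values overlapped, and all 3 calls held whichever library was left out.

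Gsto1 rose in Nampt f/f from 103 and 95.3 CPM to 141 and 124 CPM (0.44 ± 0.08, edgeR, adjusted p = 0.000905) and Gstm2 from 5.05 and 6.11 CPM to 8.73 and 12.4 CPM (0.94 ± 0.21, adjusted p = 0.00329). Gstm1, at 30.5 and 32.5 CPM against 39.0 and 39.2 CPM, rose by 0.33 ± 0.08 (adjusted p = 0.00464), a call lost without the first GFP library with IL-1β (0.24 to 0.38 over all libraries left out). The 4 members that did not pass were Gstt1, Gstk1, Mgst2 and Mgst3, with intervals that included 0. Summed endothelial markers were higher after Cre in the same 2 lines, at 17.2 to 21.3 CPM against 5.40 to 6.30 CPM in Ldha f/f and at 23.6 to 26.8 CPM against 6.92 to 7.81 CPM in Nampt f/f, all with IL-1β. In each of these groups 2 or 3 of the 6 endothelial markers were over 1 CPM in any library. Summed fibroblast markers were lower, at 2968 to 2994 against 4654 to 4831 CPM in Ldha f/f and at 2527 to 2564 against 4124 to 4164 CPM in Nampt f/f, and summed chondrocyte markers were lower in both lines. The part of these marker changes in the members' values was not tested.

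In Nfkbiz f/f with IL-1β, Gstp1 was at 178 and 182 CPM with GFP and at 81.2 and 73.5 CPM with Cre. The 2 Cre values lie next to those of the untreated GFP libraries (71.2 and 78.9 CPM). The log2 change was -1.24 ± 0.10 (edgeR, adjusted p = 3.13e-06), or 0.424 of the GFP level, and the call held whichever library was left out. Mgst1 went from 5.86 and 8.00 CPM to 2.62 and 3.87 CPM, a change of -1.11 ± 0.32 (adjusted p = 0.0302).

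Gsto1 was lower in Nfkbiz f/f after Cre, at 91.5 and 72.3 CPM against 109 and 116 CPM (-0.48 ± 0.13, edgeR, adjusted p = 0.0204), and so was Gstm1, at 21.1 and 22.5 CPM against 27.9 and 29.7 CPM (-0.42 ± 0.12, adjusted p = 0.0291). The calls for Mgst1, Gsto1 and Gstm1 were each lost without either GFP library with IL-1β, and also without the first Cre library with IL-1β for Mgst1 and Gstm1 and the second for Gsto1. Over all libraries left out the changes were -1.42 to -0.86 for Mgst1, -0.66 to -0.31 for Gsto1 and -0.46 to -0.38 for Gstm1. Gsta4, at 1.20 and 0.70 CPM against 0.39 and 0.26 CPM, missed the threshold at -1.54 ± 0.59 (adjusted p = 0.0965), a gene over 1 CPM in 1 of the 8 libraries of this line, and Mgst2, at 8.07 and 7.52 CPM against 5.33 and 5.35 CPM, missed it at -0.56 ± 0.20 (adjusted p = 0.0744). Summed adipocyte markers were also lower after Cre, at 24.5 to 27.5 CPM against 65.8 to 66.0 CPM, while summed chondrocyte markers were higher, at 37192 to 39970 against 31171 to 33520 CPM. Of the 6 adipocyte markers, 1 was over 1 CPM in the GFP libraries and 2 in the Cre libraries, so the GFP sum is mainly the level of 1 gene. The part of these marker changes in the members' values was not tested.

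**Figure D3:**
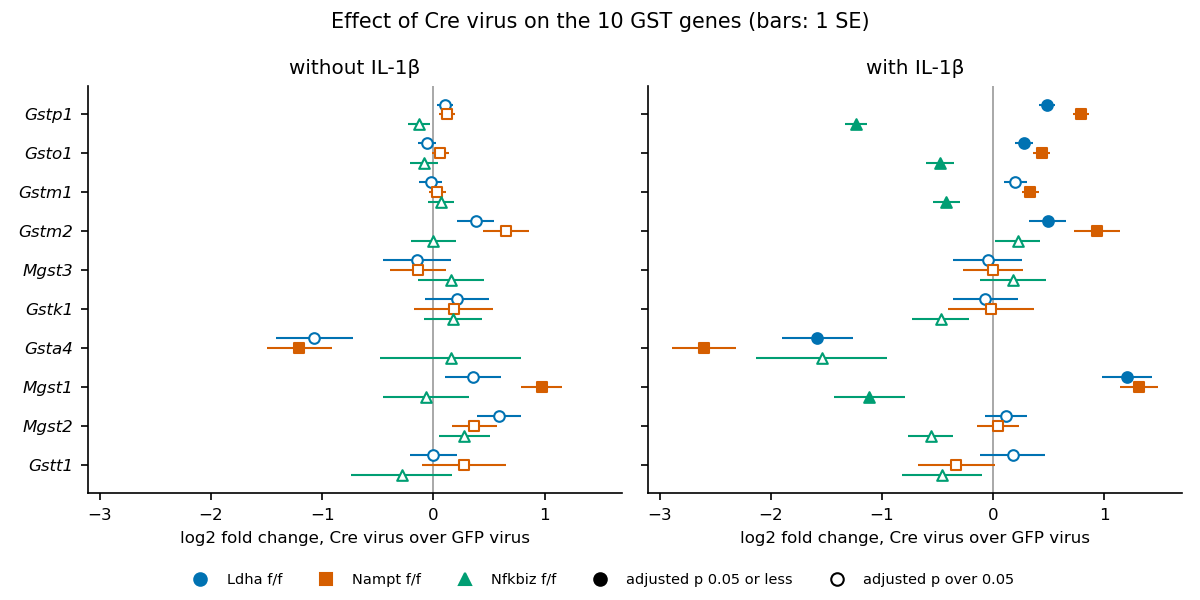
Log2 change of each member after Cre relative to GFP, without and with IL-1β, in the 3 floxed lines, with bars of 1 SE and filled points where the adjusted p was 0.05 or less. With IL-1β, Gstp1 lies above 0 in Ldha f/f (0.48) and Nampt f/f (0.79) and below 0 in Nfkbiz f/f (-1.24), and Gsta4 is called below 0 in the first 2 of these lines.

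Without IL-1β few members differed between Cre and GFP. In Nampt f/f, 2 of the 10 passed while 14.4% of all genes were called: Gsta4 was lower, at 0.97 and 1.48 CPM against 2.54 and 3.05 CPM (-1.20 ± 0.29, edgeR, adjusted p = 0.0187), and Mgst1 was higher, at 3.60 and 4.44 CPM against 2.00 and 2.05 CPM (0.97 ± 0.19, adjusted p = 0.00559). Both genes thus moved in the same directions as with IL-1β. The Gsta4 call was lost without the first Cre or the second GFP library (-1.52 to -0.91) and the Mgst1 call without the first GFP library (0.82 to 1.13). With library set as a block, Gstm2 also passed, from an estimate of 0.66 with an adjusted p of 0.0607 in the fit without the block. In Ldha f/f, 0 members passed by edgeR, DESeq2 or limma, 3 were under an unadjusted p of 0.05 by edgeR, and 5.52% of all genes were called. Gsta4 was at 1.61 and 1.45 CPM with GFP and at 0.90 and 0.54 CPM with Cre, at -1.07 ± 0.35 (adjusted p = 0.121). For Nfkbiz f/f, 0 members passed by any of the 3 tools, 0 were under an unadjusted p of 0.05, and 0.26% of all genes were called.

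The response to IL-1β after Cre shows the same values from the other side. In Ldha f/f Cre cells 8 members rose (35.9% of all genes called, 19.5% higher), in Nampt f/f Cre cells 6 rose (43.9%, 24.3% higher), and in Nfkbiz f/f Cre cells 2 rose and 2 fell (22.1%). Gstp1 rose by 1.30 in Ldha f/f and by 1.52 in Nampt f/f on the log2 scale. In Nfkbiz f/f it went from 66.7 and 71.7 CPM to 81.2 and 73.5 CPM and did not pass, with an interval of -0.05 to 0.38. Gsta4 did not pass in Nampt f/f Cre cells either, at -0.10 ± 0.31 (edgeR, adjusted p = 0.831). Of the 4 calls in Nfkbiz f/f, Gstt1 (1.56) and Mgst2 (0.88) rose and Gsto1 (-0.47) and Gstm1 (-0.38) fell. The calls were lost on leaving out the second untreated Cre library for all 4 genes, the first untreated Cre library for Gstt1, the first Cre library with IL-1β for Gstt1 and Gstm1, the second for Gsto1 and Gstm1, and the second untreated GFP library or either GFP library with IL-1β for Gstm1. Over all libraries left out, the changes were 1.42 to 1.70 for Gstt1, 0.78 to 1.01 for Mgst2, -0.65 to -0.31 for Gsto1 and -0.48 to -0.27 for Gstm1.

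The calls for the less abundant members after Cre also rested on single libraries elsewhere. In Ldha f/f, Gsta4 (1.01, edgeR, adjusted p = 0.0495) lost its call without any library but the first untreated Cre library (0.73 to 1.44). Mgst2 (0.59) lost it without the first untreated Cre library, the first Cre library with IL-1β or either GFP library with IL-1β (0.39 to 0.79). Gstm1 (0.39) lost it without the first untreated or the second IL-1β library of the Cre cells (0.30 to 0.44), and Gstm2 (0.62) without the second of either (0.46 to 0.83). Gstm2 (0.63) in Nampt f/f lost its call without either untreated Cre library or the second with IL-1β (0.37 to 0.84), and Mgst2 (0.68) without the second Cre library of either kind (0.57 to 0.77). With library set as a block, Gstt1 was added in these Nampt f/f Cre cells, and Gstm1 in the GFP cells.

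The difference between the IL-1β responses of Cre and GFP cells was tested directly. Gstp1 was called in all 3 lines, by 0.38 ± 0.10 log2 units in Ldha f/f (edgeR, adjusted p = 0.0436), 0.67 ± 0.10 in Nampt f/f (adjusted p = 0.000833) and -1.11 ± 0.14 in Nfkbiz f/f (adjusted p = 0.00048). It was the 1 member called in Ldha f/f, where 11.5% of all genes were called, and the 1 member called in Nfkbiz f/f, where 5.19% were. In Nampt f/f, where 22.0% were, Gsta4 (-1.40 ± 0.41, adjusted p = 0.0334) and Gsto1 (0.37 ± 0.11, adjusted p = 0.0345) passed as well. With library set as a block, 3 members passed in Ldha f/f, Gsto1 and Mgst1 being added, and Gstm1 was added in Nampt f/f. The Gstp1 calls in Nampt f/f and Nfkbiz f/f held whichever library was left out. Gstp1 in Ldha f/f lost its call without any library but the first untreated GFP library (0.29 to 0.43), Gsta4 in Nampt f/f without any but the first untreated Cre and second untreated GFP libraries (-1.69 to -1.08), and Gsto1 in Nampt f/f without any but the second Cre library with IL-1β (0.23 to 0.47).

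The Cre effect, averaged over the libraries without and with IL-1β, was then compared between lines in 1 fit of the 24 floxed libraries. For Nampt f/f set against Ldha f/f, 0 members differed by edgeR, and 0.227% of all genes did. Against Nfkbiz f/f, the Ldha f/f effect was higher for Gstp1 by 0.96 ± 0.08 (edgeR, adjusted p = 2.67e-08), for Mgst1 by 1.36 ± 0.28 (adjusted p = 0.00162) and for Gsto1 by 0.38 ± 0.11 (adjusted p = 0.0159), with 17.7% of all genes called and 8.34% higher. The Nampt f/f effect was higher than that of Nfkbiz f/f for Gstp1 (1.12), Mgst1 (1.71), Gsto1 (0.51), Gstm2 (0.66) and Gstm1 (0.34) and lower for Gsta4 (-1.23), so 6 members differed, with 27.6% of all genes called. Gsta4 held 6 to 24 reads a library in Nfkbiz f/f, so its Cre effect in that line is poorly measured. The Gsta4 difference was lost without any 1 of 8 libraries, namely the first Cre, the first Cre with IL-1β, the second GFP and the second GFP with IL-1β library of both lines except that the untreated GFP library of Nfkbiz f/f was the first (-1.46 to -1.05). All Nfkbiz f/f libraries were in the second library set, so line and set cannot be told apart in the level of that line, while the Cre effect was taken within it.

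The summed RPKM of the 10 genes moved with Gstp1. It was 200.4 and 197.3 RPKM in Ldha f/f GFP cells, 311 and 319 with IL-1β, and 417 and 406 with Cre and IL-1β. Nampt f/f had sums of 184 and 177, 279 and 258, and 411 and 419 RPKM. The Nfkbiz f/f sums were 187 and 197 with GFP, 330.4 and 339.7 with IL-1β, and 184 and 164 RPKM with Cre and IL-1β.

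Other genes of the transferase family and of the membrane family to which the Mgst genes belong were followed as a list of 21, of which 13 to 15 passed the expression filter. With IL-1β in the 12 GFP libraries 5 of 13 rose and 5 fell, where 56.2% of all genes were called. Ptges, the inducible prostaglandin E synthase of the same membrane family, rose most, by 4.27 ± 0.11, and Gdap1, a mitochondrial protein with a transferase-like fold, fell most, by 1.20 on the log2 scale. Gstm4, Gstm5, Gstz1 and Alox5ap fell by 0.51 to 0.86, whereas Gstp2, Gstt3 and Gstcd rose by 1.17, 0.98 and 0.32.

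With Cre under IL-1β, 4 of 15 genes of this list were called in Ldha f/f (2 higher and 2 lower), 5 of 15 in Nampt f/f (3 higher and 2 lower) and 3 of 14 in Nfkbiz f/f (all lower), where 34.0%, 48.4% and 17.4% of all genes were called. These shares of the list are not above that background in the first 2 lines. Ptges was at 42.3 and 40.7 CPM with GFP and at 133 and 129 CPM with Cre in Ldha f/f. It went from 49.0 and 41.8 CPM to 206 and 198 CPM in Nampt f/f, and from 37.7 and 34.7 CPM to 10.2 and 9.78 CPM in Nfkbiz f/f. Its log2 changes were 1.68, 2.17 and -1.88, the same order of signs as Gstp1.

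Gstp2, the near copy of Gstp1, was lower in level. In Nfkbiz f/f with IL-1β it was at 10.2 and 12.2 CPM with GFP and at 4.47 and 6.09 CPM with Cre (-1.10, edgeR, adjusted p = 0.00351). In Nampt f/f it rose from 8.41 and 11.1 CPM to 17.1 and 23.4 CPM (1.08, adjusted p = 0.0125), and in Ldha f/f, at 7.06 and 13.6 CPM against 14.2 and 20.9 CPM, it missed the threshold at 0.80 (adjusted p = 0.136). Its values thus ran with those of Gstp1, with which it shares nearly all coding bases.

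Gsta1, an alpha-class relative next to Gsta4 on chromosome 9, had few reads and is given in counts. With IL-1β the 2 GFP libraries held 161 and 76 reads in Ldha f/f, 101 and 46 in Nampt f/f, and 35 and 64 in Nfkbiz f/f. The Cre libraries with IL-1β held 0 and 2 reads, 4 and 3 reads, and 4 and 6 reads in the same order. Gsta1 was called lower after Cre with IL-1β in all 3 lines. The filter needed 1 library over 1 CPM, and Gsta1 was at 1.75 to 4.31 CPM in GFP libraries with IL-1β. In untreated GFP libraries it was at 0.09 to 0.86 CPM. Its calls thus draw on a group that let it pass the filter, and they are description only.

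The genes around the transferases were taken as 4 lists. With IL-1β in the GFP libraries, 12 of 17 genes of glutathione synthesis and reduction were called, 8 of them higher, led by Slc7a11 (2.35 ± 0.06), the reductase Gsr (1.96) and the ligase subunit Gclc (1.53). Of NRF2 and its other classic targets 13 of 15 were called, all higher, among them the ferritin chain Fth1 (2.94) and sulfiredoxin, Srxn1 (1.95). Other glutathione-using enzymes were split, with 5 higher and 6 lower of 13, and of the export and mercapturate genes 3 were higher, Abcc3 (1.97) and Abcc1 (1.38) among them, and 2 lower of 7. The median log2 changes were 0.31, 0.95, -0.04 and 0.09, against -0.01 over all genes, of which 56.2% were called.

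After Cre under IL-1β most called genes of the synthesis and NRF2 lists were lower in all 3 lines. Of the synthesis and reduction genes, 8 were lower and 1 higher of 19 in Ldha f/f, 10 lower and 1 higher of 19 in Nampt f/f, and 8 lower and 1 higher of 18 in Nfkbiz f/f. Over all genes, 34.0%, 48.4% and 17.4% were called in these lines in either direction, so the counts are read against shares that were already large, and nothing is called particular to the lists. Slc7a11 changed by -2.29, -2.87 and -2.89, with mean levels that went from 185 to 37.3 CPM, from 219 to 29.5 CPM and from 126 to 17.1 CPM. Gclc fell by 1.37 in Ldha f/f and by 1.22 in Nfkbiz f/f. The gene called higher in Ldha f/f and Nampt f/f was Ggt1, which splits extracellular glutathione (1.66 and 2.05).

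Of the NRF2 list, 8 were lower and 2 higher of 15 in Ldha f/f, 8 lower and 4 higher in Nampt f/f and 11 lower and none higher in Nfkbiz f/f. Heme oxygenase, Hmox1, fell by 1.59 in Ldha f/f and by 1.88 in Nampt f/f, and Srxn1 by 2.17 in Nfkbiz f/f. Among other glutathione-using enzymes 1 was higher and 4 lower of 13 in Ldha f/f, 5 higher and 6 lower of 14 in Nampt f/f, and 5 lower and none higher of 13 in Nfkbiz f/f. Prdx6, a peroxidase that uses glutathione, changed by -1.06 in Ldha f/f and -1.11 in Nampt f/f. Of the export genes 2 were higher and 2 lower of 7 in Ldha f/f, 2 higher and 3 lower of 7 in Nampt f/f, and 3 lower of 8 in Nfkbiz f/f. Abcc1 changed by -0.91, -1.13 and -1.01 in the 3 lines, and Abcc3 by 0.89, 1.22 and -1.30, with the same signs as Gstp1. In Ldha f/f and Nampt f/f, Gstp1 and Mgst1 thus rose after Cre while the median of the synthesis list was -0.41 and -0.46 and that of the NRF2 list -0.32 and -0.38. The Nfkbiz f/f medians were -0.31 and -0.62.

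**Figure D4:**
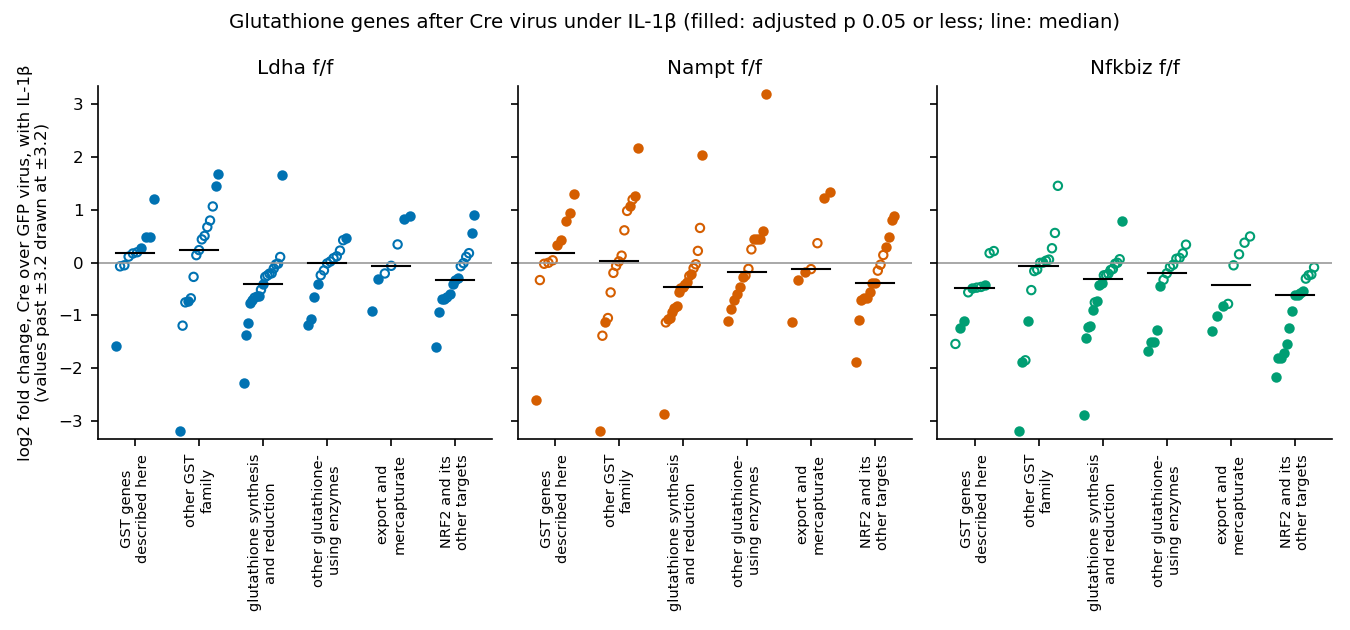
Log2 change after Cre relative to GFP, both with IL-1β, for the 10 members and the 5 lists of related genes in each floxed line. Each point is a gene, filled where the adjusted p was 0.05 or less, the line marks the median of the list, and values beyond 3.2 in either direction (Gsta1 in all lines, Gpx2 in Nampt f/f) are drawn at the edge. The member median is -0.47 in Nfkbiz f/f and 0.19 in each of the other lines.

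In wild-type cells the question was what FX11 and IL-1β did alone and together. In the second library set, the library labelled FX11 held 2016 CPM of Mmp3 and 12540 CPM of Lcn2, genes that IL-1β raises in chondrocytes, whereas the library labelled IL-1β held 0.784 and 17.2 CPM and the untreated one 0.808 and 12.5 CPM. Thus 2 of the 8 wild-type libraries went against their labels. They are given as labelled, and no direction is drawn from them. By edgeR, 0 members and 0.0% of 15461 genes passed in each of 4 comparisons (IL-1β, FX11, FX11 under IL-1β, and both against untreated), with 153, 68, 102 and 860 genes under an unadjusted p of 0.05. DESeq2 called 6, 2, 1 and 144 genes and 0 members, and limma called 0 members. With those 2 libraries left out, 0 members passed as well.

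In the first set, Gstp1 was at 117 CPM untreated, 144 CPM with FX11, 156 CPM with IL-1β and 221 CPM with both. In the second, it was at 68.0 CPM untreated, 189 CPM in the library labelled FX11, 93.6 CPM in the one labelled IL-1β and 205 CPM with both. Untreated cells had the lowest value in either set and cells given both agents the highest. With both agents against none, the log2 change of Gstp1 was 1.21 ± 0.36 (edgeR, unadjusted p = 0.0144, adjusted p = 0.873).

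Gsta4 was at 7.06 CPM untreated, 15.4 CPM with FX11, 16.2 CPM with IL-1β and 38.2 CPM with both in the first set. In the second set it was at 2.32, 4.68, 6.94 and 18.2 CPM in the same order of labels. With both agents it was thus 5.42 and 7.88 times its untreated level in the 2 sets, a log2 change of 2.59 ± 0.84 (edgeR, unadjusted p = 0.0204, adjusted p = 0.873).

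Mgst2 was at 1.68, 2.34, 10.7 and 15.5 CPM in the first set and at 1.84, 9.36, 0.60 and 5.10 CPM in the second, in the order untreated, FX11, IL-1β and both. The library labelled FX11 was thus the highest for Mgst2 in the second set and that labelled IL-1β the lowest. Mgst1 was at 5.08, 10.2, 10.6 and 18.2 CPM in the first set, and at 22.3, 23.7, 21.8 and 17.3 CPM in the second, where its range was narrower than in the first. The sets also differed in other cell types, with summed macrophage markers at 106 to 331 CPM and adipocyte markers at 19.5 to 391 CPM over the 8 libraries, and the part of these in the members' values was not tested.

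**Figure D5:**
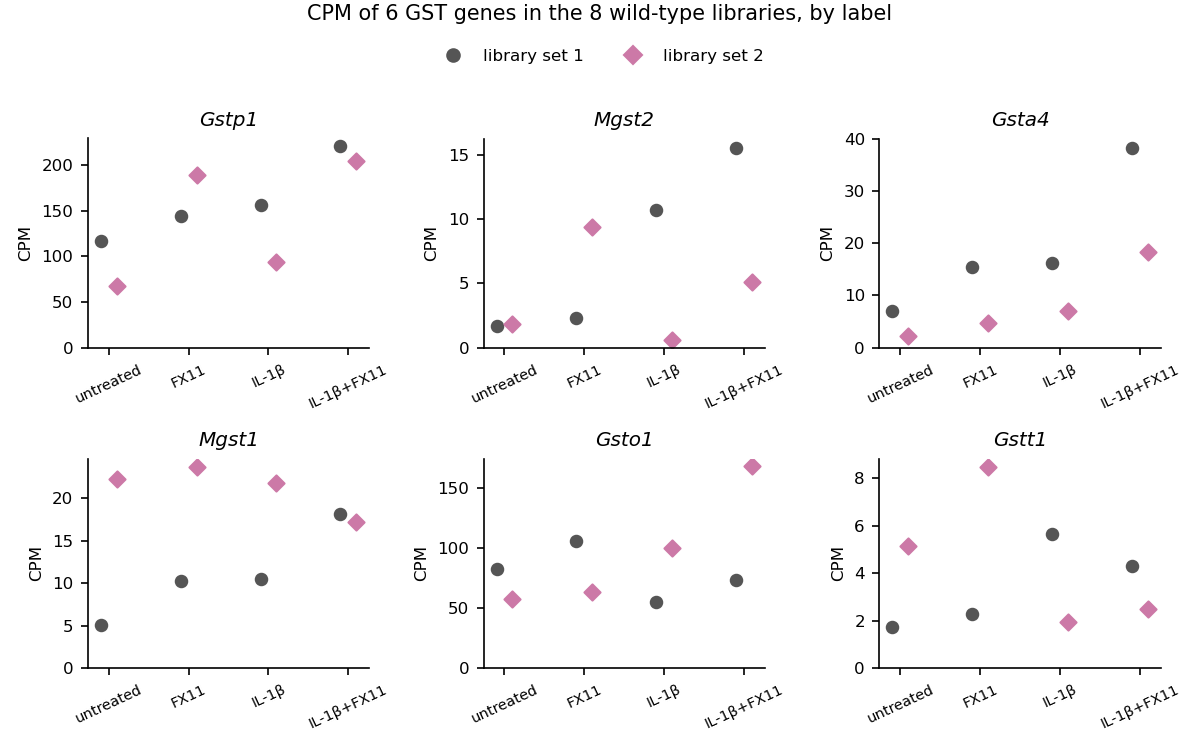
Levels in CPM of Gstp1, Mgst2, Gsta4, Mgst1, Gsto1 and Gstt1 in the 8 wild-type libraries, by label and library set. Gsta4 is highest with IL-1β and FX11 together in both sets (38.2 and 18.2 CPM), while Mgst2 is high in the second-set library labelled FX11 (9.36 CPM) and low in the one labelled IL-1β (0.60 CPM).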

How the data were processed

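RNA was sequenced from 32 libraries of mouse chondrocytes after ribosomal RNA depletion. Per the labels and the study's methods, the authors aligned reads with STAR to Ensembl release 76 (GRCm38). They counted uniquely aligned, unambiguous reads per gene with featureCounts. The submitters' processing notes gave versions 2.0.4b and 1.45 of these tools, while the paper's methods name other versions of both. The strand setting was not given in the sources used here. The deposited counts were tested as they stood. The deposited CPM equalled count over library total, and the deposited RPKM equalled CPM per kilobase. The CPM and RPKM printed here were instead computed with library sizes scaled by TMM over all 32 libraries. GENCODE M21 named 40340 of 41388 genes, and 1048 stayed unnamed.

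Counts were fitted with edgeR 4.0.16 (R 4.3.3) by quasi-likelihood after TMM scaling, for genes over 1 CPM in at least the smaller group's size minus 1 libraries, with 355 ribosomal RNA genes left out. p-values were two-sided and adjusted by Benjamini and Hochberg over all genes tested, and a gene was called at 0.05 or less. Each floxed line and wild type was fitted on its own 8 libraries, the pooled IL-1β comparison on 12 GFP libraries with line and library set as covariates, and differences between lines on 24. SE was the absolute log2 change over the root of F, and intervals used t quantiles. The script was tested on simulated data. limma 3.58.1 and DESeq2 1.42.0, other filters and scalings, and single libraries left out were alternatives. Same-set libraries deviated from their group means together in Ldha f/f (r 0.36 to 0.58 over 6 pairs) and Nampt f/f (0.36 to 0.50), where the set marks which replicate a library is, so the fit with set as a block is given where it changed a call. In wild type r was -0.15 to 0.73. No 2 replicates were as alike as sampling noise. Named genes were the 10 members, other transferase genes that passed the filter, and up to 3 called genes of largest change per list. The members and lists were chosen with earlier results of these data known. Intervals and counts cover counting and library spread only. 1 gene of the likeness comparison is not reported here.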

Additional observations from a re-analysis of the deposited data

Results flagged for a closer look

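Each result here was singled out because the difference between 2 effects itself passed the test (edgeR, Benjamini-Hochberg over all genes). The change of the IL-1β response after Cre was 0.38 log2 units for Gstp1 in Ldha f/f, -1.11 for Gstp1 in Nfkbiz f/f, and 0.67 for Gstp1, 0.37 for Gsto1 and -1.40 for Gsta4 in Nampt f/f. The Cre effect of Ldha f/f minus that of Nfkbiz f/f was 0.96 for Gstp1, 1.36 for Mgst1 and 0.38 for Gsto1. The Cre effect of Nampt f/f minus that of Nfkbiz f/f was 1.12 for Gstp1, 1.71 for Mgst1, 0.51 for Gsto1, 0.66 for Gstm2, 0.34 for Gstm1 and -1.23 for Gsta4, which held 6 to 24 reads a library in Nfkbiz f/f. Gstp1 was the member with a called difference in all 5 of these comparisons.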

How the results depend on the processing

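No member's log2 change reversed sign under any alternative while called. The counts in this section show how calls moved between fits. Shares of all genes called in the alternatives are not given here, so no count is read as a result about the members. The alternative that moved most was 1 model of all 32 libraries, which includes the 2 wild-type libraries against their labels: it called 1 member for IL-1β in GFP cells of Ldha f/f and of Nampt f/f and 2 in Nfkbiz f/f, 0, 3 and 1 for Cre with IL-1β, 0 for Cre without IL-1β in Nampt f/f, 2, 3 and 0 for IL-1β in Cre cells, 0 for each interaction, 1 for the Cre effect of Ldha f/f and of Nampt f/f against Nfkbiz f/f, and 4 for both agents against none in wild type. The Ldha f/f interaction called 0 members with filterByExpr or no filter and 3 with the replicate block. limma called 2 members for IL-1β in Nfkbiz f/f Cre cells. The IL-1β response of Nampt f/f against Nfkbiz f/f had 1 member, Gstp1, under DESeq2, filterByExpr, no filter, limma and the replicate block. The block added 7 calls and removed none. It could not be fitted in Nfkbiz f/f, all in the second set.

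With single libraries left out, the lone library of a group being assumed to vary like the others, members called ranged from 3 to 5 for Cre with IL-1β in Ldha f/f, 5 to 7 for IL-1β in its Cre cells and 0 to 2 for its interaction. They ranged from 1 to 3 for Cre without IL-1β and 1 to 2 for the interaction in Nampt f/f. In Nfkbiz f/f they ranged from 1 to 4 for Cre with IL-1β, 0 to 5 for IL-1β in Cre cells and 1 to 2 for the interaction, and for the IL-1β response of Nampt f/f against Nfkbiz f/f from 0 to 1. Over these fits 2851 member results stayed on their side of the threshold, 91 lost a call and 13 gained one. Gsta4, Gstt1, Mgst1, Mgst2, Gstk1 and Mgst3 had few reads, which limits their precision. In the floxed libraries Gstk1 held 35 to 136 reads and Mgst3 49 to 143.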

Other observations

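Over the 24 floxed-line libraries, the members whose log2 CPM varied most were Gsta4 (SD 1.29), Mgst1 (SD 1.03) and Gstt1 (SD 0.88). Genes with similar values were Adam23 (Pearson r = 0.92) and Prkar2b (0.92) for Gsta4, Igsf8 (0.97) for Mgst1, and Gdnf (0.92) and Gk (0.91) for Gstt1. The 24 libraries share lines, treatments and library sets, so these values are a description of likeness only.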
